A study of Mus musculus with 23 samples.

Results

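Lysozyme and antimicrobial defense genes of the colonic epithelium are described here across 3 dietary regimens in aged male C57BL/6 mice (C57BL/6J in the study's methods). The members are the 10 loci, of 24917 in the count table, whose symbol is Lyz1, Lyz2, Reg3b, Reg3g, Reg4, Retnlb, Ang4, Itln1, Pigr or Lypd8. Each symbol stands at 1 locus, and all 10 passed the filter on low counts in every fit. LF mice received a diet with 10% fat for 43 weeks from 6 weeks of age and HF mice a diet with 60% fat for the same time, while HFLF mice received the 60% diet for 15 weeks and then the 10% diet for 28 weeks, so all groups were the same age. Epithelium was released with EDTA from the whole colon, and RNA depleted of ribosomal RNA was sequenced from 4 LF, 3 HF and 4 HFLF samples in batch 1 and from 4 LF, 3 HF and 5 HFLF samples in batch 2. The labels do not say what the batches are. The study's methods give fewer mice per regimen than there are samples here (8 LF, 6 HF and 9 HFLF). Some of the 23 samples may therefore share a mouse, and p-values measure the spread between samples, which may in part be technical.

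The colonic epithelium keeps microbes away from its surface with secreted proteins that kill or bind bacteria and with proteins that carry antibodies into the lumen. Lysozymes cut the peptidoglycan of bacterial walls. In mice Lyz1 is the form of Paneth cells, which belong to the small intestine, and Lyz2 the form of macrophages and other myeloid cells. Reg3b and Reg3g are C-type lectins that epithelial cells release in response to bacteria and to the cytokine IL-22, and Reg4, a related lectin, marks secretory cells of the deep crypt in the mouse colon. Retnlb (RELM-beta), Ang4 (a bactericidal ribonuclease) and Itln1 (intelectin, which binds microbial sugars) are secreted mainly by goblet and Paneth cells. Pigr carries IgA across the epithelium, and Lypd8 is a surface protein of colonocytes that binds flagellated bacteria.

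Depth ranged from 29189922 to 65320947 counts on genes per sample. Values are given as CPM, the counts divided by the scaled library size and expressed at a common depth, in the order of the replicate numbers, and 3 counts corresponded to 0.0453 to 0.104 CPM. A member was called changed at an adjusted p under 0.05 (edgeR's quasi-likelihood test, Benjamini-Hochberg over all genes tested) with a fold change above 1.2. In HF against LF samples 0 of 14428 genes passed in batch 1 (0%), 1069 of 14377 in batch 2 (7.44%) and 2605 of 14385 over both batches with batch as a covariate (18.1%). In HFLF against HF samples 0.00693%, 14.5% and 10.3% of genes passed. In HFLF against LF samples 0%, 0.00696% and 0% passed. The 3 comparisons share samples, so the groups' values are set side by side and one comparison is not used to support another.

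The sequences of both lysozymes are shown first because their similarity decides how far their counts can be told apart. Lyz1 (Entrez 17110) lies at chr10:117287795-117292868 on the minus strand of mm10, and Lyz2 (Entrez 17105) at chr10:117277541-117282272 on the same strand, with 5522 bases between them. In GENCODE vM21, which is on the same genome build, both coding sequences have 447 bases, of which 425 are identical (95.1%), and 20 of the 22 differences fall in the first 300 bases. These 300 bases lie in exons 1 and 2, at chr10:117291030-117292838 for Lyz1 and chr10:117280642-117282242 for Lyz2. They are written 5′ to 3′, with bases that differ from the other gene in capitals.
Lyz1: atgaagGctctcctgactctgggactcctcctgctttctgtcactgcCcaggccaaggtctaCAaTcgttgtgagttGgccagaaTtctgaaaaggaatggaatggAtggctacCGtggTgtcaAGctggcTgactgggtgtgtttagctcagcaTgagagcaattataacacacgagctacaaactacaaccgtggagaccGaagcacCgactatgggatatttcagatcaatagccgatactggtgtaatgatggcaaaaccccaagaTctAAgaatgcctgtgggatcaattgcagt
Lyz2: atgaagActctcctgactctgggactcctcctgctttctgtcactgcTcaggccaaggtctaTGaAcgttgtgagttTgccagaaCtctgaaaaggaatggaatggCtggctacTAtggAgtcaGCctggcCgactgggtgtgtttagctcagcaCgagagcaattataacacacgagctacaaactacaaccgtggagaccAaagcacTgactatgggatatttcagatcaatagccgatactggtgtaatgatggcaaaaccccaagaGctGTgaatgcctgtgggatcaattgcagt
The longest stretch without a difference has 118 bases, at coding bases 276 to 393. Of the 76-base windows (the read length) in the longest protein-coding transcript, 72 of 1188 in Lyz1 (6.06%) were also found in Lyz2, so most reads can be placed on 1 of the genes. Reads were paired, and how reads that fit both genes were counted is not given in the sources used here. The counts of these genes are therefore given separately and, where it changes a call, summed.

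The lectins Reg3b (Entrez 18489, chr6:78370885-78373466, plus strand) and Reg3g (Entrez 19695, chr6:78466268-78468874, minus strand) stand 92801 bases apart and are less alike. Their coding sequences, of 528 and 525 bases, were identical in 75.9% of aligned positions. The first 150 coding bases, in exons 2 and 3 of both genes (chr6:78371205-78371872 and chr6:78467844-78468562), show how densely the differences are spread, again in capitals.
Reg3b: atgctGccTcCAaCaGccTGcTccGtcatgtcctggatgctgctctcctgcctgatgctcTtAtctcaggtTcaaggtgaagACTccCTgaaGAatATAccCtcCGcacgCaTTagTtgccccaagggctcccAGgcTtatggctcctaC
Reg3g: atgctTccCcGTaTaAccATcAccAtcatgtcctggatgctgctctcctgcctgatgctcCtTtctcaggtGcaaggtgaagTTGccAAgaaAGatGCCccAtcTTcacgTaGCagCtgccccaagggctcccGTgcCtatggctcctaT
No window of read length was shared between Reg3b or Reg3g and another gene (0 of 708 and 0 of 696).

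The other members are Reg4 (Entrez 67709, chr3:98222156-98236748, plus strand), Retnlb (57263, chr16:48816856-48818892, plus), Ang4 (219033, chr14:51763892-51773590, minus), Itln1 (16429, chr1:171518124-171535294, minus), Pigr (18703, chr1:130826684-130852249, plus) and Lypd8 (70163, chr11:58379032-58390541, plus). No other GENCODE gene overlapped any of the 10 members. Windows of read length were shared with other genes in 0.631% of the Ang4 transcript, with Ang5, and in 1.06% of the Pigr transcript, and none in Reg4, Retnlb, Itln1 or Lypd8. Divided by the exon length in kilobases, the mean level over all samples was highest for Lypd8 (3938 CPM per kb) and Pigr (879), followed by Reg4 (286), Reg3b (181), Ang4 (178), Retnlb (103), Reg3g (19.0), Itln1 (3.77), Lyz2 (1.88) and Lyz1 (1.06). The means of Reg3b, Ang4 and Retnlb rest on a few high samples and their ranges overlap, so these 3 genes cannot be ordered. The mean of Itln1 also rests on a few high samples. Its median over all samples was 1.54 CPM, against 2.11 CPM for Lyz2, so Itln1 and Lyz2 cannot be ordered either. The exon length is the union over all annotated transcripts of a gene. For Reg3g it is 2114 bases, against 771 in the longest protein-coding transcript, and for Reg3b 1142 against 783. For Lyz1, Reg4 and Retnlb both lengths are the same, so the level of Reg3g per kb may be understated beside the other members.

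**Figure D1:**
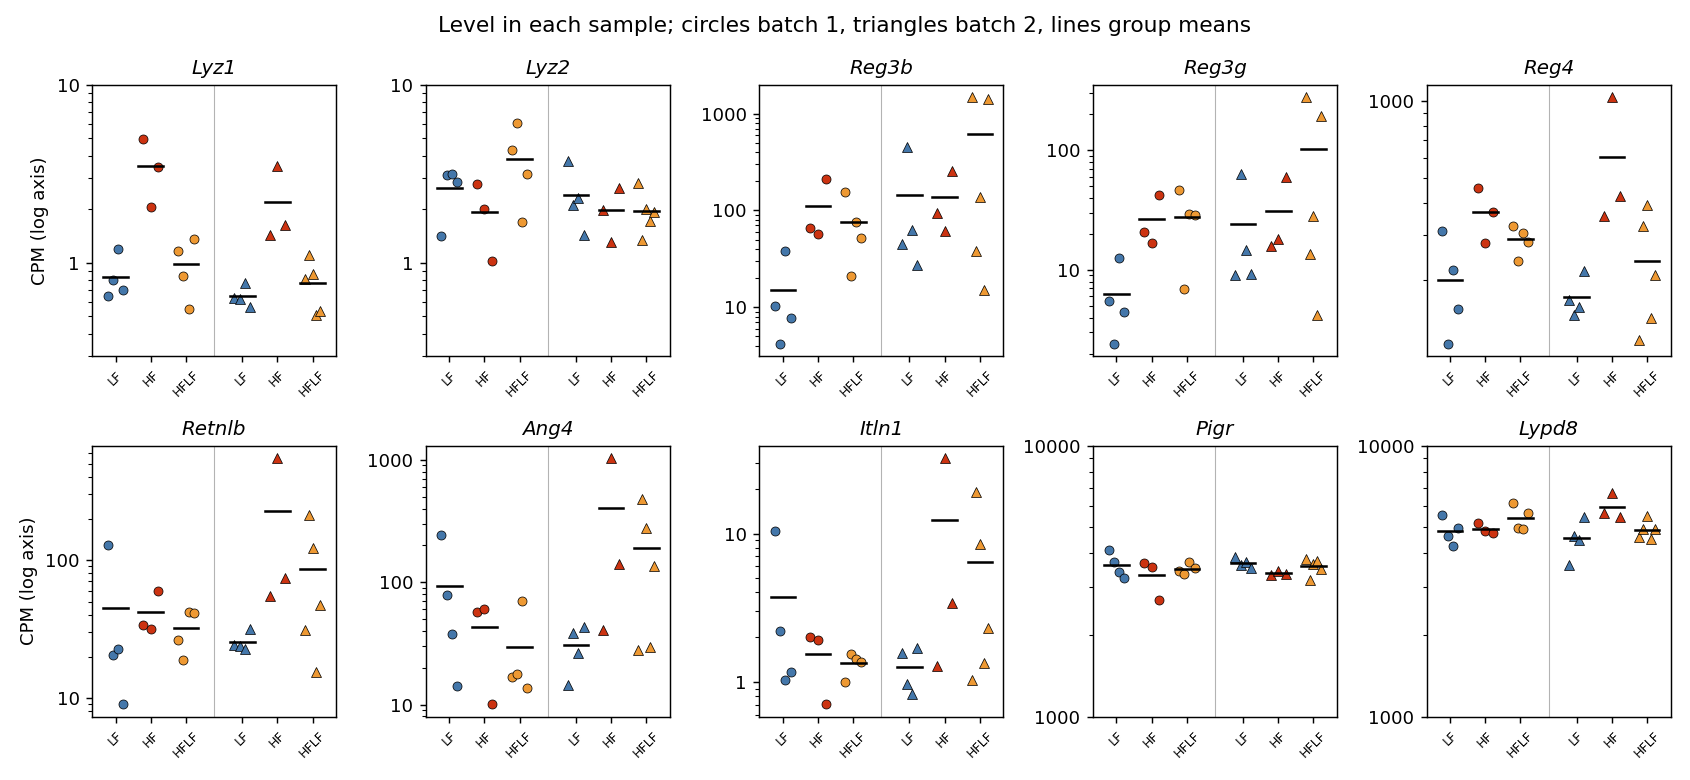
Level of each of the 10 genes in each of the 23 samples, in CPM on a log axis that differs between panels, by diet (LF blue, HF red, HFLF orange) and batch (circles batch 1, triangles batch 2), with lines at group means. Lyz1 lies higher in the 6 HF samples than in the others of its batch, Reg3b and Reg3g have the widest ranges over all samples, and Pigr and Lypd8 stay within a narrow range.

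Lyz1 was the least abundant member, and it separated the diets in both batches. In batch 1 Lyz1 stood at 0.648, 0.797, 1.19 and 0.707 CPM in LF samples, at 4.96, 2.06 and 3.48 CPM in HF samples and at 1.17, 0.845, 0.549 and 1.36 CPM in HFLF samples. The batch 2 values were 0.635, 0.630, 0.772 and 0.566 CPM in LF samples, 1.43, 3.52 and 1.63 CPM in HF samples and 0.815, 1.10, 0.867, 0.509 and 0.534 CPM in HFLF samples. All HF samples lay above all LF and all HFLF samples, within each batch and over the batches together, whereas LF and HFLF samples overlapped in both. These values rest on 67 to 227 counts in HF samples and on 19 to 48 counts in the others.

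Lyz1 was 3.76-fold higher in HF than in LF samples over both batches (log2 fold change 1.91 ± 0.24 SE, 6 against 8 samples, adjusted p = 0.000141). The change was 2.06 ± 0.35 in batch 1, where no gene passed (adjusted p = 0.137), and 1.74 ± 0.32 in batch 2, where it was called (adjusted p = 0.0186) by edgeR and limma, while DESeq2 gave the gene no adjusted p. It fell by 1.68 ± 0.23 (log2) from HF to HFLF samples over both batches (adjusted p = 8.01e-04), by 1.85 ± 0.35 in batch 1 (adjusted p = 0.373) and by 1.51 ± 0.30 in batch 2 (adjusted p = 0.0134). Between HFLF and LF samples the difference was 0.23 ± 0.24 (adjusted p = 0.980). The change from LF to HF samples did not differ detectably between the batches (batch 2 minus batch 1 -0.33 ± 0.51, adjusted p = 0.956). Among genes tested over both batches, Lyz1 ranked 4 by p for HF against LF samples and 2 for HFLF against HF samples. HF and HFLF samples stood apart in 7.99% of genes in batch 1 and 27% in batch 2. Groups that stood apart in the same direction in both batches were found in 4.73% of genes for HF against LF samples and in 2.16% for HFLF against HF samples, and Lyz1 was the single member among them in both comparisons.

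Lyz2 did not pass in any comparison. In batch 1 it stood at 1.41, 3.12, 3.17 and 2.86 CPM in LF samples, at 2.78, 2.00 and 1.02 CPM in HF samples and at 4.30, 6.14, 1.70 and 3.15 CPM in HFLF samples. In batch 2 the levels were 3.72, 2.11, 2.32 and 1.43 CPM in LF samples, 1.99, 1.31 and 2.64 CPM in HF samples and 2.81, 1.34, 2.00, 1.72 and 1.92 CPM in HFLF samples. All groups overlapped. The log2 fold change was -0.33 ± 0.30 from LF to HF samples over both batches (adjusted p = 0.405) and 0.46 ± 0.29 from HF to HFLF samples (adjusted p = 0.253). When the counts of both lysozymes were summed, the change from LF to HF samples was 0.55 ± 0.22 (adjusted p = 0.0651) and that from HF to HFLF samples -0.40 ± 0.22 (adjusted p = 0.181), so neither passed and the calls for Lyz1 hold for reads placed on Lyz1 alone.

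Markers of the cells that make lysozyme were low. Of 12 Paneth cell markers present, a single gene, Mmp7, passed the filter, and their summed level was 0.704 to 1.81 CPM in LF, 0.709 to 2.36 CPM in HF and 0.824 to 1.93 CPM in HFLF samples, nearly all of it Mmp7. The 11 other markers, alpha-defensin genes, did not exceed 11 counts in any sample, and 5 of them had no count in any sample. In HF samples Gm15284 reached at most 0.0302 CPM and the 10 other genes were at 0. Alpha-defensin genes are near-identical copies, whose reads may go uncounted where they match several genes, and the part of Paneth cells in the Lyz1 values was not tested. The summed level of 14 macrophage markers was 33.9 to 44.96 CPM in LF, 39.8 to 47.3 CPM in HF and 32.9 to 44.7 CPM in HFLF samples, most of it Cd14. Of the 12 tested, 9 had a log2 fold change below 0 from LF to HF samples (median -0.42) and 8 one above 0 from HF to HFLF samples (median 0.42), beside medians of -0.01 and 0.01 over all genes and changes of -0.33 and 0.46 for Lyz2, and the part of these cells in the Lyz2 values was not tested. Among these markers Cd14 was higher in HF than in LF samples (0.35 ± 0.10, adjusted p = 0.0129) and C1qc, a complement subunit made by macrophages, lower (-1.29 ± 0.47, adjusted p = 0.0416). Cd14 fell from HF to HFLF samples by 0.42 ± 0.09 (adjusted p = 0.0131). Neutrophil and pancreas markers did not pass the filter.

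Since small intestinal epithelium holds Paneth cells, a list of 7 genes more abundant in small intestine was also examined. Its summed level was 101 to 161 CPM in LF, 124 to 272 CPM in HF and 103 to 156 CPM in HFLF samples. Most of it came from Slc10a2, Alpi and Fabp6 (means of 74.5, 49.2 and 48.3 CPM in HF samples). Slc10a2 and Fabp6 were not called, and in HF samples they ranged from 49.3 to 139 and from 6.86 to 142 CPM. Of 6 genes tested, Alpi (an alkaline phosphatase of the brush border, 0.70 ± 0.16, adjusted p = 0.00660) and Mogat2 (which rebuilds dietary fat, 0.57 ± 0.15, adjusted p = 0.0101) were higher in HF than in LF samples, and both were lower in HFLF than in HF samples (adjusted p = 0.0195 and 0.0243). Over all genes 9% were called and higher in HF than in LF samples, and 4.9% were called and lower in HFLF than in HF samples. The median over the 6 genes was 0.39 from LF to HF samples, beside -0.01 over all genes. HF replicate 3 of batch 1 and HF replicate 1 of batch 2 had the highest sums (257 and 272 CPM), while Lyz1 was highest within its batch in HF replicate 1 of batch 1 and HF replicate 2 of batch 2, whose sums were 124 and 151 CPM. Whether these genes and Lyz1 share a source was not tested.

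Reg4 was the other member called over both batches. In batch 1 it stood at 310.3, 113, 219 and 154 CPM in LF samples, at 458, 278 and 367 CPM in HF samples and at 326, 236, 305 and 282 CPM in HFLF samples. In batch 2 it stood at 166, 146, 157 and 216 CPM in LF samples, at 355, 1032 and 424 CPM in HF samples and at 117, 323, 390.1, 141 and 209 CPM in HFLF samples. HF and LF samples were apart in batch 2 and overlapped in batch 1, through LF replicate 1, and HF and HFLF samples overlapped in both. HF replicate 2 of batch 2 exceeded every other sample.

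The log2 fold change of Reg4 from LF to HF samples was 1.39 ± 0.28 over both batches (adjusted p = 0.00429), 0.88 ± 0.27 in batch 1 (adjusted p = 0.160) and 1.82 ± 0.39 in batch 2 (adjusted p = 0.0272). Reg4 fell by 0.91 ± 0.27 from HF to HFLF samples over both batches (adjusted p = 0.0294) and by 1.35 ± 0.37 in batch 2 (adjusted p = 0.0261), while the change in batch 1 was -0.36 ± 0.27 (adjusted p = 0.601). HFLF samples differed from LF samples by 0.48 ± 0.25 (adjusted p = 0.980). Without HF replicate 2 of batch 2, the change from LF to HF samples over both batches was 1.03 ± 0.24 (adjusted p = 0.0159) and still passed, whereas the fall to HFLF samples was 0.54 ± 0.24 (adjusted p = 0.140) and did not. Without HF replicate 1 of batch 1 the fall to HFLF samples also missed the threshold (adjusted p = 0.0505).

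**Figure D2:**
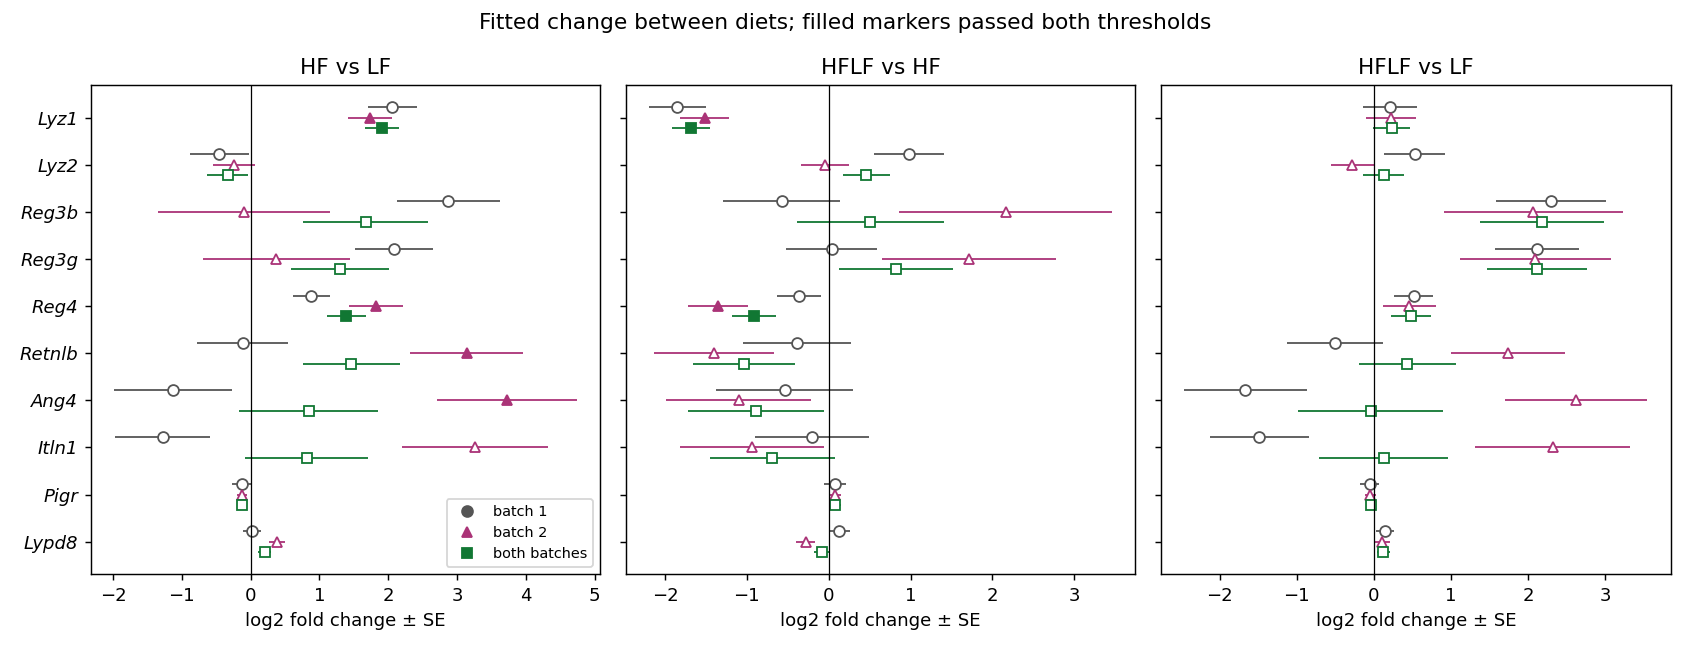
Fitted log2 fold change with its SE for each gene in 3 comparisons of diets, in batch 1 (circles), batch 2 (triangles) and over both batches (squares), where filled markers passed both thresholds. Filled squares are found for Lyz1 and Reg4, in HF against LF (1.91 and 1.39) and HFLF against HF samples (-1.68 and -0.91). In HF against LF samples Reg3b, Retnlb, Ang4 and Itln1 have opposite signs in the batches. Of these values, Reg3b in batch 2 (-0.09 ± 1.24) and Retnlb in batch 1 (-0.12 ± 0.66) are smaller than their SE. The difference between the batches was called for none of the 4 genes.

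Altogether 2 of 10 members were called in HF against LF samples over both batches, both higher, where 9% of all genes were called and higher, and the same 2 members were called in HFLF against HF samples, both lower, where 4.9% of genes were called and lower. The median log2 fold change over the members was 1.07 in HF against LF samples, -0.39 in HFLF against HF samples and 0.18 in HFLF against LF samples, and that over all genes lay between -0.01 and 0.01. In batch 1, edgeR called 0 members in HF against LF samples, and 4 members (Lyz1, Reg3b, Reg3g and Reg4) had an unadjusted value under 0.05, as did 22.2% of all genes. DESeq2 called Lyz1, Reg3b and Reg4 there, and limma called these 3 and Reg3g. The share of all genes that DESeq2 and limma called is not given here, so these counts are not read as a result about the members. In batch 2, 4 members were called (Lyz1, Reg4, Retnlb and Ang4), all higher in HF samples, as were 3.03% of genes, and 2 (Lyz1 and Reg4) in HFLF against HF samples, both lower, as were 5.61% of genes. In HFLF against LF samples edgeR, DESeq2 and limma called 0 members in either batch, and 3 had an unadjusted value under 0.05 in batch 1 (5.29% of genes) and 3 in batch 2 (4.65%). Without HF replicate 2 of batch 2, edgeR called 0 members in HF against LF samples and in HFLF against HF samples of batch 2 (Lyz1 came nearest, with adjusted p = 0.101 and 0.102), and without LF replicate 1 or LF replicate 3 of batch 2 it called 0 in HF against LF samples.

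Reg3b was the most variable member, and Reg3g varied with it. In batch 1 Reg3b stood at 10.2, 4.23, 38.2 and 7.72 CPM in LF samples, at 65.8, 56.8 and 212 CPM in HF samples and at 155, 21.2, 75.7 and 51.6 CPM in HFLF samples. The batch 2 values were 44.8, 449, 63.3 and 27.6 CPM in LF samples, 95.2, 61.6 and 253 CPM in HF samples and 1476, 38.4, 137, 15.2 and 1401 CPM in HFLF samples. HF samples lay above LF samples in batch 1, where these groups stood apart in 13.7% of genes, and overlapped with them in batch 2, where LF replicate 2 was high, and HFLF replicates 1 and 5 of batch 2 exceeded all other samples.

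Reg3g showed a similar order of samples at lower levels. In batch 1 it stood at 5.50, 2.43, 12.7 and 4.47 CPM in LF samples, at 20.8, 16.9 and 42.7 CPM in HF samples and at 46.4, 6.99, 29.1 and 28.7 CPM in HFLF samples. In batch 2 the levels were 9.09, 63.6, 14.7 and 9.32 CPM in LF samples, 15.9, 18.3 and 59.4 CPM in HF samples and 278, 13.7, 28.2, 4.24 and 194 CPM in HFLF samples. The same samples were high, LF replicate 2 and HFLF replicates 1 and 5 of batch 2, and the groups overlapped except for HF and LF samples of batch 1 (13.7% of genes). Within groups, the SD of log2 CPM was 1.86 for Reg3b and 1.56 for Reg3g, beside 1.59 for Ang4 and a median of 0.171 over 14385 genes.

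HFLF samples had higher fitted levels than LF samples, by 2.18 ± 0.80 for Reg3b and 2.12 ± 0.65 for Reg3g (log2, adjusted p = 0.980 for both), and no gene tested passed in this comparison. The differences were 2.30 ± 0.71 and 2.12 ± 0.55 in batch 1 and 2.07 ± 1.16 and 2.09 ± 0.98 in batch 2. The size depended on the fit, since limma gave 1.501 ± 0.97 for Reg3b and 1.43 ± 0.94 for Reg3g over both batches and 0.95 ± 1.21 and 1.03 ± 1.10 in batch 2, and a replicate block gave 0.23 ± 1.37 and 0.71 ± 1.16 in batch 2. In HF against LF samples over both batches Reg3b differed by 1.67 ± 0.91 (adjusted p = 0.161, 0.48 to 1.72 in the other fits over all samples) and Reg3g by 1.30 ± 0.71 (adjusted p = 0.165, 0.85 to 1.36). Without LF replicate 2 of batch 2, HFLF samples exceeded LF samples by 3.21 ± 0.84 for Reg3b and 2.76 ± 0.69 for Reg3g over both batches (adjusted p = 0.731 and 0.623). In HF against LF samples Reg3b passed in that fit (2.41 ± 0.84, adjusted p = 0.0359), the single one of 23 fits without 1 sample in which it did. Over those 23 fits the ranges were 1.76 to 3.21 for Reg3b and 1.64 to 2.76 for Reg3g in HFLF against LF samples. They were 0.95 to 2.41 and 0.91 to 1.84 in HF against LF samples. Within batches the change from LF to HF samples was 2.87 ± 0.75 for Reg3b in batch 1 (adjusted p = 0.146) and -0.09 ± 1.24 in batch 2 (adjusted p = 0.965), and for Reg3g 2.08 ± 0.57 (adjusted p = 0.156) and 0.38 ± 1.06 (adjusted p = 0.830). The batch 2 minus batch 1 difference of this change was -2.97 ± 1.68 for Reg3b (adjusted p = 0.801). In HFLF against LF samples over both batches edgeR, DESeq2 and limma each called 0 members, and 2 members, these lectins, had an unadjusted value under 0.05, as did 4.11% of genes.

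Across the 23 samples, with each value taken as its difference from the mean of its diet and batch, Reg3b and Reg3g had a Pearson r of 0.981 and a Spearman rho of 0.963 (permutation test within groups, two-sided, p = 2e-05 for both, adjusted over 4 pairs 8e-05). The r was 0.959 in batch 1 and 0.987 in batch 2, and 0.973 without the 2 samples farthest from the median of Reg3b. The 3 genes whose deviations were most like those of Reg3b were Reg3g (0.98), Gm6377 (0.78) and Reg3a (0.77), a further lectin of the family with at most 54 counts in a sample. For Reg3g they were Reg3b, Reg3a (0.75) and Gm6377 (0.75). Of the 4 other Reg lectins listed, Reg1, Reg2 and Reg3d did not pass the filter, and Reg3a was not called in any comparison over both batches.

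Genes that carry the signals known to induce these lectins were examined as lists. Of 10 genes of IL-22 and IL-17 signalling tested, 0 were called by edgeR in any comparison over both batches, and the median log2 fold change was -0.04 from LF to HF samples. Il17rc and Tyk2, a receptor chain and a kinase, had an adjusted p of 0.0114 and 0.0264 in HF against LF samples with changes of -0.19 ± 0.05 and -0.17 ± 0.05, below the fold threshold, and of 0.0138 and 0.0310 in HFLF against HF samples with changes of 0.21 ± 0.05 and 0.18 ± 0.05. Among 16 microbial sensing genes tested, Pycard, an inflammasome adaptor, was higher in HF than in LF samples (0.40 ± 0.10, adjusted p = 0.0103). The peptidoglycan sensors Nod1 (-0.37 ± 0.09, adjusted p = 0.00713) and Nod2 (-0.43 ± 0.15, adjusted p = 0.0410) were lower. Over all genes 18.1% were called in that comparison, 1294 of 14385 higher and 1311 lower. Nod1 was higher again in HFLF than in HF samples (0.35 ± 0.09, adjusted p = 0.0156), where 783 of 14385 genes were called and higher. The medians over this list were 0.01 from LF to HF samples and 0.04 from HF to HFLF samples.

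**Figure D3:**
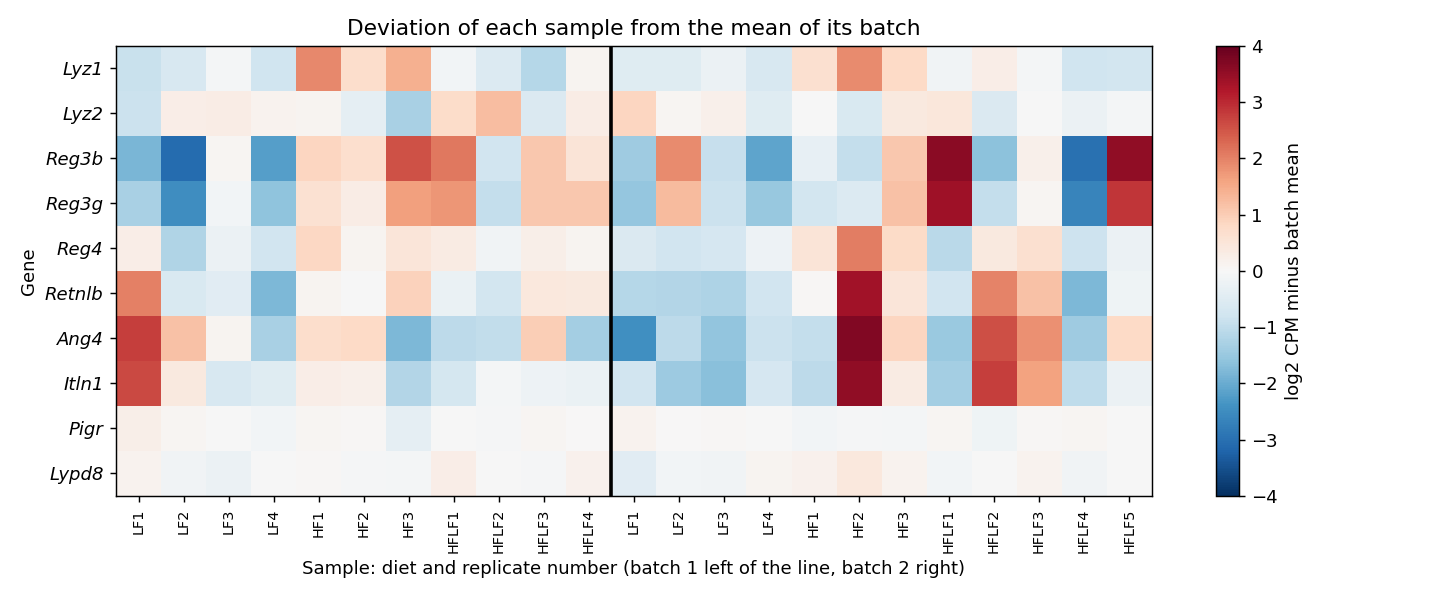
Deviation of log2 CPM from the mean of the batch for the 10 genes (vertical axis) in each sample (horizontal axis), red for higher and blue for lower, with batch 1 left of the line. Reg3b and Reg3g share their high samples, and Retnlb, Ang4 and Itln1 are high together in LF replicate 1 of batch 1 and in HF replicate 2, HFLF replicate 2 and HFLF replicate 3 of batch 2.

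Retnlb, Ang4 and Itln1, the secreted proteins of goblet cells, were high together in 1 LF sample, 1 HF sample and 2 HFLF samples. In batch 1 Retnlb stood at 129, 20.6, 22.8 and 9.02 CPM in LF samples, at 33.9, 31.5 and 59.8 CPM in HF samples and at 26.3, 19.0, 42.4 and 41.1 CPM in HFLF samples. In batch 2 it stood at 24.3, 23.99, 22.7 and 31.5 CPM in LF samples, at 55.0, 549 and 74.6 CPM in HF samples and at 31.2, 213, 122, 15.5 and 47.2 CPM in HFLF samples. HF and LF samples were apart in batch 2 and overlapped in batch 1, where LF replicate 1 was the highest sample.

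Ang4 was highest in the samples where Retnlb was highest. In batch 1 it stood at 241, 79.1, 37.7 and 14.1 CPM in LF samples, at 57.0, 60.9 and 10.0 CPM in HF samples and at 16.9, 17.7, 69.7 and 13.6 CPM in HFLF samples. The batch 2 values were 14.4, 38.3, 26.4 and 43.1 CPM in LF samples, 41.0, 1036 and 142 CPM in HF samples and 28.1, 475, 277, 29.3 and 137 CPM in HFLF samples. All groups overlapped, and HF replicate 2 of batch 2 stood above every other sample.

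Itln1 was far less abundant per length than Ang4. In batch 1 it stood at 10.46, 2.18, 1.03 and 1.16 CPM in LF samples, at 1.99, 1.91 and 0.704 CPM in HF samples and at 0.990, 1.54, 1.43 and 1.36 CPM in HFLF samples. In batch 2 the levels were 1.57, 0.969, 0.825 and 1.70 CPM in LF samples, 1.28, 32.3 and 3.41 CPM in HF samples and 1.03, 18.9, 8.43, 1.34 and 2.31 CPM in HFLF samples. The high samples were those of Ang4, and all groups overlapped.

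In batch 2 Retnlb and Ang4 were called higher in HF than in LF samples (log2 fold change 3.14 ± 0.82, adjusted p = 0.0382, and 3.73 ± 1.02, adjusted p = 0.0417), and Itln1 differed by 3.26 ± 1.06 (adjusted p = 0.0624). All 3 were highest in HF replicate 2, and without it the differences were 1.35 ± 0.68, 1.58 ± 0.86 and 0.93 ± 0.95, and no adjusted p was below 0.301. In batch 1 the differences were -0.12 ± 0.66 for Retnlb, -1.13 ± 0.86 for Ang4 and -1.28 ± 0.69 for Itln1 (adjusted p = 0.926, 0.427 and 0.278). Over both batches they were 1.46 ± 0.70, 0.84 ± 1.01 and 0.81 ± 0.90 (adjusted p = 0.114, 0.544 and 0.505), and without LF replicate 1 of batch 1, the sample in which all 3 were highest in that batch, Retnlb passed (2.31 ± 0.56, adjusted p = 0.00876). This was the single one of 23 fits without 1 sample in which Retnlb passed. Its values in those fits ran from 0.48 to 2.31, with an adjusted p up to 0.567, and it passed in 1 of 7 other fits. The difference between the batches in the change from LF to HF samples was 3.26 ± 1.19 for Retnlb, 4.86 ± 1.503 for Ang4 and 4.56 ± 1.43 for Itln1 (adjusted p = 0.700, 0.688 and 0.688), and edgeR and DESeq2 each found 0 members whose change differed between batches. These 3 members had an unadjusted value under 0.05 in that test, as did 6.56% of genes. For HFLF against HF samples 1 member (Lypd8) and 7.68% of genes had such a value in the test between batches, and for HFLF against LF samples 3 members (Retnlb, Ang4 and Itln1) and 7.58% of genes, again with 0 members called by edgeR and by DESeq2.

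HFLF against LF samples showed the same opposite signs, with -0.50 ± 0.62 for Retnlb, -1.67 ± 0.79 for Ang4 and -1.49 ± 0.64 for Itln1 in batch 1 and 1.74 ± 0.74, 2.63 ± 0.92 and 2.32 ± 1.01 in batch 2, none of which passed (adjusted p = 0.858, 0.792 and 0.792 in batch 1 and 1.00 for each in batch 2). Around the group means, Retnlb and Ang4 had a Pearson r of 0.798 and a Spearman rho of 0.662 over 23 samples (permutation test within groups, two-sided, p = 0.00122 and 0.00905, adjusted 0.00244 and 0.0181). The r was 0.934 in batch 2 (adjusted permutation p = 0.00190) and 0.573 in batch 1 (adjusted permutation p = 0.334), and in batch 1 it was -0.206 without LF replicates 1 and 4, so the relation in batch 1 rests on those samples. Without the 2 samples farthest from the median over both batches, r was 0.712.

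Other genes followed the same samples. Among the deviations most like those of Ang4 were those of Clca3 (0.92) and Mptx1 (0.89), among those most like Itln1 were Mptx1 (0.93) and Clps (0.91), and those most like Retnlb were Pnliprp2 (0.92), Itln1 (0.86) and Pla2g4c (0.85). Clca3 is a secreted goblet cell protein and Mptx1 a mucosal pentraxin. The summed level of 10 genes of type 2 cytokine signalling and its targets was 3707 and 4025 CPM in HFLF replicates 2 and 3 and 4120.1 CPM in HF replicate 2 of batch 2, above every other sample (1491 to 2745 CPM). LF replicate 1 of batch 1 did not stand out, at 2635 CPM beside 2680 CPM in HF replicate 1 of that batch. Most of the sum came from the gasdermin genes Gsdmc2, Gsdmc3 and Gsdmc4. None of the 7 genes of this list that were tested was called by edgeR in any comparison over both batches. Whether type 2 signalling had a part in the levels of Retnlb, Ang4 and Itln1 was not tested.

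**Figure D4:**
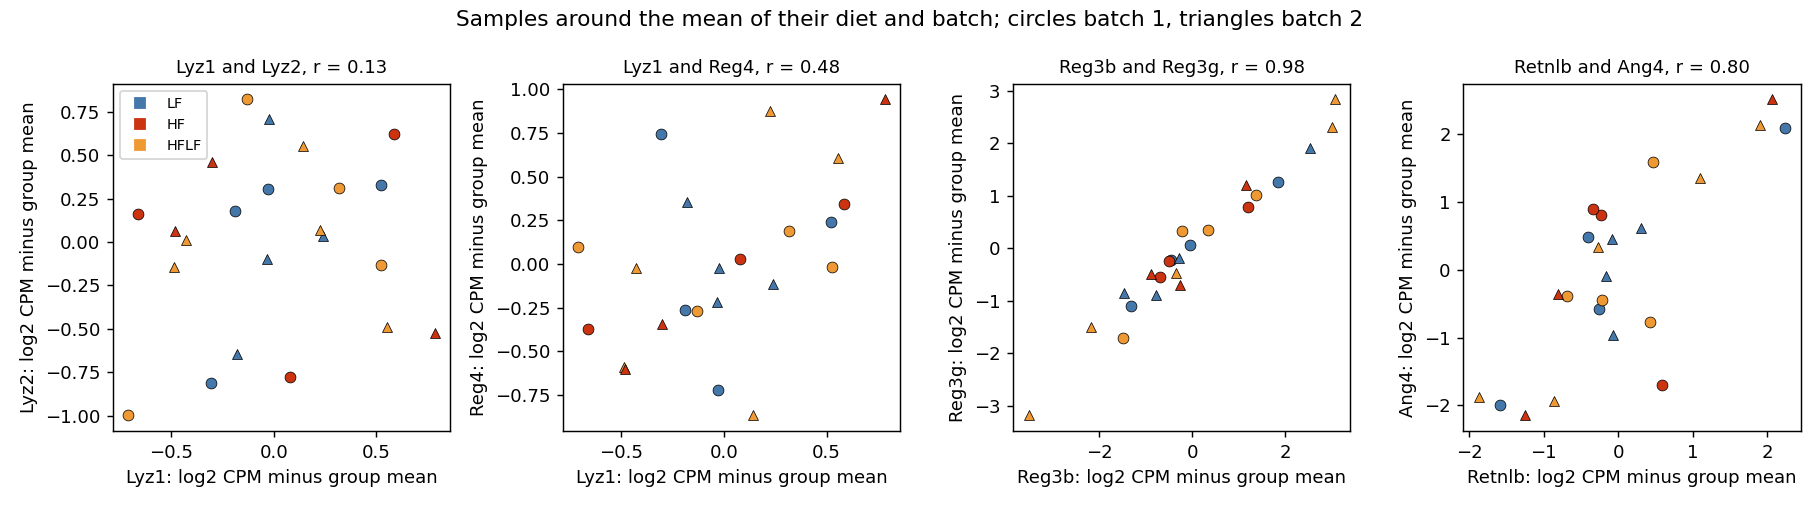
Deviation of log2 CPM from the mean of the diet and batch in 23 samples for 4 pairs of genes, by diet (colour) and batch (circles batch 1, triangles batch 2). Points follow a line for Reg3b and Reg3g (r = 0.981) and spread upward for Retnlb and Ang4 (0.798), while Lyz1 and Lyz2 (0.132) and Lyz1 and Reg4 (0.480) are scattered.

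No relation between Lyz1 and Lyz2 around the group means passed the test (Pearson r 0.132, Spearman rho 0.190, permutation test within groups, two-sided, p = 0.620 and 0.460, adjusted 0.620 and 0.460), with r of 0.434 in batch 1 and -0.307 in batch 2 and 0.0945 without the 2 samples farthest from the median of Lyz1. For Lyz1 and Reg4 the r was 0.480 and the rho 0.479 (permutation p = 0.0565 and 0.0541, adjusted 0.0753 and 0.0721), with r of 0.242 in batch 1 and 0.668 in batch 2 and 0.434 without the 2 samples farthest from the median. The genes whose deviations were most like those of Lyz1 were Slc2a6, Mcpt2 and Gdap2, all at 0.69. For Lyz2 they were Nes (0.92), Ltbp4 (0.89) and Synm (0.89), a cytoskeletal or matrix gene each, and for Reg4 they were Spink4 (0.90), Pnliprp2 (0.88) and Retnlb (0.83). These likenesses are descriptions over 23 samples that share libraries and depth.

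Stromal RNA varied with the sample. The summed level of 8 stromal markers was 13.3 to 57.3 CPM in LF, 3.16 to 36.5 CPM in HF and 8.51 to 88.2 CPM in HFLF samples, with the maximum in HFLF replicate 2 of batch 1, where Lyz2 was also highest (6.14 CPM), and the minimum in HF replicate 3 of batch 1, where Lyz2 was lowest (1.02 CPM). None of the 8 markers was called by edgeR between diets over both batches. All 8 had a log2 fold change below 0 from LF to HF samples (median -1.12) and 7 of 8 one above 0 from HF to HFLF samples (median 1.23), where Lyz2 changed by -0.33 and 0.46, and the part of stromal cells in the Lyz2 values was not tested. In these bulk samples fewer cells of a type and less RNA per cell cannot be told apart.

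Goblet and deep crypt secretory markers were examined beside Reg4. Of 13 goblet markers tested, Spink4 (0.96 ± 0.22, adjusted p = 0.00642), Agr2 (0.58 ± 0.15, adjusted p = 0.00888), Klk1 (0.45 ± 0.11, adjusted p = 0.00786) and 1 more were called higher in HF than in LF samples. None was called lower, and 9% of all genes were called and higher. The list as a whole went both ways, with 7 genes above 0, 6 below 0 (Muc2 among them, -0.31 ± 0.17, not called) and a median of 0.01. Klk1 alone was called in HFLF against HF samples, and it fell by 0.40 ± 0.11 (adjusted p = 0.0204). The summed level of the list overlapped between diets, at 20305 to 39932 CPM in LF, 17739 to 32946 CPM in HF and 22464 to 43387 CPM in HFLF samples. Of 4 deep crypt secretory markers, 3 were lower in HF than in LF samples (1311 of all 14385 genes were called and lower), the Notch ligands Dll1 (-0.56 ± 0.14, adjusted p = 0.00982) and Dll4 (-0.41 ± 0.11, adjusted p = 0.0101) and the receptor Kit (-0.30 ± 0.09, adjusted p = 0.0201). The remaining marker, Cd177, was not called (0.19 ± 0.16, adjusted p = 0.379), and Reg4, which marks the same cells, was higher. Dll1, Dll4 and Kit were higher in HFLF than in HF samples (0.52 ± 0.14, 0.46 ± 0.10 and 0.31 ± 0.09, adjusted p = 0.0200, 0.0133 and 0.0261), where 783 of 14385 genes were called and higher. The summed level of the 4 markers overlapped between diets, at 207 to 328 CPM in LF, 174 to 290 CPM in HF and 253 to 338 CPM in HFLF samples. The part of deep crypt secretory cells in the Reg4 values was not tested.

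Pigr and Lypd8, the most abundant members, differed little between samples. Pigr ranged from 3248 to 4106 CPM in LF, from 2693 to 3684 CPM in HF and from 3194 to 3803 CPM in HFLF samples. In batch 2 it stood at 3889.9, 3624, 3719 and 3547 CPM in LF samples and at 3326, 3461 and 3374 CPM in HF samples, which stood apart, as was the case for 27.3% of genes in that comparison. The log2 fold change from LF to HF samples was -0.13 ± 0.07 over both batches (adjusted p = 0.165), and the within-group SD of log2 CPM was 0.122, below the median over all genes.

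Lypd8 ranged from 3638 to 5552 CPM in LF, from 4764 to 6715 CPM in HF and from 4539 to 6128 CPM in HFLF samples. The batch 2 values were 3638, 4646, 4492 and 5432 CPM in LF samples, 5623, 6715 and 5455 CPM in HF samples and 4582, 4912, 5484, 4539 and 4915 CPM in HFLF samples. HF samples lay above LF samples there, with 5455 against 5432 CPM in the nearest samples, and overlapped with HFLF samples. The change from LF to HF samples was 0.38 ± 0.12 in batch 2 (adjusted p = 0.0571), 0.02 ± 0.13 in batch 1 (adjusted p = 0.934) and 0.21 ± 0.10 over both batches (adjusted p = 0.0976), and DESeq2 and limma called it in batch 2 (adjusted p = 0.0132 and 0.0284). The genes whose deviations were most like those of Lypd8 were Gabarapl2, Snap23 and Crnkl1 (0.87, 0.87 and 0.86), and for Pigr Plcd4, Btbd2 and Hykk (0.83, 0.82 and 0.82).

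Other bactericidal genes were examined as a list. Of 19 tested, 5 were higher in HF than in LF samples over both batches and none lower, where 9% of all genes were called and higher, with a median of 0.22 beside -0.01 over all genes. These were Slpi, a protease inhibitor with bactericidal activity (1.36 ± 0.37, adjusted p = 0.0124), Pla2g2a, a gene of the secreted phospholipase family (1.17 ± 0.24, adjusted p = 0.00474), Duoxa2, the maturation factor of the peroxide-producing oxidase Duox2 (0.67 ± 0.21, adjusted p = 0.0236), and the phospholipases Pla2g5 and Pla2g2f. The values are RNA levels, and whether this mouse strain makes an active protein from each gene was not tested. Slpi stood at 1.15 ± 0.55 CPM in LF (SD, n = 8), 3.06 ± 2.99 CPM in HF (n = 6) and 1.90 ± 1.09 CPM in HFLF samples (n = 9), and Pla2g2a at 1.18 ± 0.32, 2.65 ± 1.32 and 1.77 ± 0.49 CPM. In HFLF against HF samples 2 genes of the list fell, Pla2g5 by 0.43 ± 0.13 (adjusted p = 0.0316) and Pla2g2f by 0.32 ± 0.08 (adjusted p = 0.0181), and 0 were called by edgeR in HFLF against LF samples. The 12 colonocyte markers, the 6 Hox genes and the T cell and B cell lists held no gene called between diets over both batches.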

How the data were processed

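RNA of colonic epithelium was sequenced as paired 76-base reads after depletion of ribosomal RNA. The authors filtered reads by quality, trimmed adapters (CutAdapt 1.2.1), aligned them to mm10 (STAR 2.5) and deposited counts per gene (featureCounts 1.5.0-p1). The setting for strand and for reads matching several genes is not given in the sources used here. The table holds 24917 loci, of which 5109 had no count. Genes were kept by filterByExpr (minimum count 10), scaled by TMM and tested with the quasi-likelihood test of edgeR 4.0.16 (R 4.3.3) within each batch and over both batches with batch as covariate, with Benjamini-Hochberg adjustment over all genes. The batch by diet term was tested in the same way. Log2 CPM used a prior count of 2. Permutation tests of correlations drew 100000 permutations within diet and batch, of values centred on group means. DESeq2 1.42.0, limma 3.58.1 (voom with sample weights), another scaling, no low-count filter, a replicate block, summed paralogs, samples of the same diet and number summed over batches, and leaving out each sample were tried. The tests were run on simulated counts first. Depth was 29189922 to 65320947 counts per sample.

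The 10 genes, the gene lists and the tests were chosen with earlier results of these data known. Named from each list were the genes called over both batches, at most 3 in each direction with the largest change, and for each of the 10 genes the 3 others with the highest Pearson r of centred log2 CPM among the genes tested, except that 1 such gene is not reported here. Il17rc and Tyk2 fall outside that rule and were chosen after their values were seen, as were Pla2g5 and Pla2g2f in HF against LF samples, Slc10a2, Fabp6, the defensin-like gene Gm15284 and the gasdermins Gsdmc2, Gsdmc3 and Gsdmc4.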

Additional observations from a re-analysis of the deposited data

Results flagged for a closer look

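In groups of 4 or 5 samples, 5 of 40 groups held a sample whose gap to the next one, in CPM, was above Dixon's 95% critical value. The rate of 1 in 20 behind that value, about 2 groups here, holds for normally distributed values. CPM that spread over many-fold ranges need not follow that distribution, so the count of flags is not read against this rate. LF replicate 2 of batch 2 stood at 448.5 CPM for Reg3b, with the next LF sample at 63.35 CPM, and at 63.59 CPM for Reg3g, with the next at 14.72 CPM. These lectins vary together, so both flags come from 1 sample. LF replicate 1 of batch 1 stood at 128.8 CPM for Retnlb (next 22.81 CPM) and at 10.46 CPM for Itln1 (next 2.183 CPM). HFLF replicate 3 of batch 1 stood at 69.69 CPM for Ang4, with the next sample at 17.68 CPM. HF groups have 3 samples and were not tested in this way, so HF replicate 2 of batch 2, the highest sample for Reg4, Retnlb, Ang4 and Itln1, could not be flagged.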

How the results depend on the processing

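Lyz1 was called in both comparisons with HF samples over both batches in each of 23 fits that left out 1 sample (1.74 to 2.03 and -1.80 to -1.51) and under the 6 alternatives that kept the gene, and Reg4 in HF against LF samples likewise (1.03 to 1.53 without 1 sample). In batch 1, HF against LF samples gave 3 members with DESeq2, 4 with limma, 4 in the fit with a replicate block and 0 to 4 without 1 sample, and HFLF against HF samples gave 1 (Lyz1) with DESeq2. The shares of all genes called in the alternative fits are not given here, so such counts show only how the calls moved. In batch 2 the counts without 1 sample were 0 to 5 in HF against LF samples and 0 to 3 in HFLF against HF samples. HFLF against HF samples over both batches gave 1 or 2. With paralog counts summed, 1 member (Reg4) was called in HFLF against HF samples of batch 2, 1 in HF against LF samples over both batches and 1 in HFLF against HF samples over both batches, since the summed lysozymes did not pass.

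Of 20 pairs of samples with the same number and batch, 12 had an r over 0.1 (-0.601 to 0.61), as had 4 of 11 pairs with the same number and diet across batches (-0.484 to 0.36). Not every pair was over 0.1, so the numbers were not taken to pair samples and the replicate block is an alternative only. A single low pair is enough to fail this rule, so it cannot exclude that the numbers pair samples. Within batches, a sample correlated best with its own number in another diet in 8 of 20 cases in batch 1 and 7 of 20 in batch 2. The rate without pairing is not given here. Signs changed for members that were not called. In batch 1, Retnlb in HF against LF samples was 0.43 with limma, 0.21 with the replicate block and -0.47 to 1.25 without 1 sample, and in HFLF against LF samples 0.35 with limma and -0.85 to 0.87 without 1 sample. In HF against LF samples of batch 1 the values without 1 sample were -1.60 to 0.0797 for Itln1, -0.21 to 0.00508 for Pigr and -0.0418 to 0.0929 for Lypd8. In those of batch 2, Reg3b was 0.49 with limma and -0.90 to 1.60 without 1 sample, Reg3g was -0.21 with the replicate block and -0.51 to 1.51 without 1 sample, and Lyz2 was -0.51 to 0.0502 without 1 sample. Over both batches in HFLF against LF samples, Itln1 was -0.0325 with DESeq2 and -0.38 to 1.24 without 1 sample, Ang4 was 0.99 with limma, 0.0491 with the replicate block, 0.92 with samples summed over batches and -0.44 to 0.89 without 1 sample, and Lyz2 was -0.0727 to 0.27 without 1 sample. In HFLF against HF samples over both batches, Itln1 was 0.0541 with the replicate block, and the ranges without 1 sample were -1.49 to 0.16 for Retnlb, -1.45 to 0.66 for Ang4 and -1.42 to 0.96 for Itln1. In HF against LF samples over both batches they were -0.21 to 1.77 for Ang4 and -0.48 to 1.91 for Itln1. Among the fits without 1 sample, the opposite signs in these last 2 comparisons came without HF replicate 2 of batch 2. The cause was not tested. Lyz1 rests on 19 to 48 counts in LF and HFLF samples, and their difference had an SE of 0.24 (log2).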
